A study of Mus musculus with 38 samples.

Results

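Expression of 9 genes of neutrophil recruitment and inflammation was followed through tumor progression and chemotherapy in the MMTV-PyMT mouse model of breast cancer, in which the polyoma middle T oncogene is driven by the mouse mammary tumor virus promoter. The genes were the chemokines Cxcl1, Cxcl2 and Cxcl5, the interleukin-1 ligands Il1a and Il1b, their natural antagonist Il1rn, the cytokine Tnf, and the enzymes Ptgs2 and Nos2. They were found by gene name among the probes of the arrays that are not controls, where 12 of 41174 probes carried one of these names, and they make up 9 of the 28781 gene names tested.

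All tumors came from hyperplasias of MMTV-PyMT;actin-GFP female mice that had been transplanted into cleared mammary fat pads of FVB/n females, and GFP+ cells were sorted before RNA was extracted. The GFP transgene is driven by a ubiquitous promoter, so that it marks any cell of donor origin and not epithelium alone. Progression was profiled in 5 adenomas, 6 carcinomas, 6 disseminated samples, which were pooled from the lungs of several tumor-bearing mice, and 5 lung metastases, collected after the primary tumor had been removed (22 arrays). In the chemotherapy experiment, 6 untreated tumors were compared with 6 residual tumors taken after the first dose and 4 relapsed tumors taken after the fourth dose of the TAC regimen of docetaxel, doxorubicin and cyclophosphamide (16 arrays). Treatment began 2 months after transplantation, at the early carcinoma stage. The labels name the residual tumors regressed and the relapsed ones resistant.

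Each array compared the Cy5-labeled RNA of a sample with 1 Cy3-labeled Universal mouse reference, so every level given here is a log2 ratio to that reference, where 1 unit is a 2-fold difference. Throughout, called means an adjusted p below 0.05 in limma together with a log2 change of 1 or more in size. Progression samples were hybridized on 6 slides. Carcinomas and metastases shared slides 1 to 3, scanned on 1 day, and adenomas and disseminated cells shared slides 4 to 6, scanned on another. A difference between those 2 pairs of groups therefore cannot be told apart from slide and scan day, and within-slide values exist for disseminated cells against adenomas and for metastases against carcinomas. Carcinoma 6 stood apart from the other 5 carcinomas, with a mean log2 ratio of 15 macrophage marker genes of 5.10 against -0.37 to 0.93. Its values are given separately for some genes, and the carcinoma means and tests include it unless stated otherwise. By the median correlation with the other arrays of its group, the lowest progression arrays were disseminated 6 (0.71), carcinoma 6 (0.760), metastasis 4 (0.775) and disseminated 4 (0.776). Calls that were lost or gained when 1 array was left out are given with the genes. In bulk samples, more cells of a type and more RNA per cell cannot be told apart.

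The chemokines Cxcl1, Cxcl2 and Cxcl5 bind the receptor CXCR2 and draw neutrophils out of the blood. Interleukin-1 and TNF are released by activated macrophages and by stressed epithelial cells, act through NF-kappaB, and induce these chemokines together with Ptgs2 in the cells that receive the signal. Nos2, which makes nitric oxide from arginine, is induced by the same signals in activated macrophages.

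The start regions of Cxcl1, Cxcl2 and Cxcl3 carry the letters by which NF-kappaB is usually recognized, and are shown here because these chemokine genes share them. A match is a description of the letters and not a measured binding site. RefSeq start regions of GRCm38.p6, from 250 bases before to 50 bases after the start, were found for 7 of the 9 genes. The table used here did not list Cxcl5 and Nos2. Of the other listed genes, Il1rn held a match to the NF-kappaB type motif, and Il1a, Il1b, Tnf and Ptgs2 held none in this window. Capitals mark matches, on either strand, to an NF-kappaB type motif, GGG followed by any 3 bases and then TTCC, and to the TATA box, whose letters are TATAAA. Cxcl1 lies at chr5:90890995-90891294 (+ strand), Cxcl2 at chr5:90903649-90903948 (+ strand), and Cxcl3, a neighboring relative that belongs to the same chemokine group and is described below with them, at chr5:90785851-90786150 (+ strand).
Cxcl1: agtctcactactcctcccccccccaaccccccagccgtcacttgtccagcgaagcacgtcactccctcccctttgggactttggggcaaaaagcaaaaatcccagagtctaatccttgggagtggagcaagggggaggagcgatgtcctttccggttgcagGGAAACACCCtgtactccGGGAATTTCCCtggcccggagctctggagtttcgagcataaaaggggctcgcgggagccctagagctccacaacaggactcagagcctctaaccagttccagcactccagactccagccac
Cxcl2: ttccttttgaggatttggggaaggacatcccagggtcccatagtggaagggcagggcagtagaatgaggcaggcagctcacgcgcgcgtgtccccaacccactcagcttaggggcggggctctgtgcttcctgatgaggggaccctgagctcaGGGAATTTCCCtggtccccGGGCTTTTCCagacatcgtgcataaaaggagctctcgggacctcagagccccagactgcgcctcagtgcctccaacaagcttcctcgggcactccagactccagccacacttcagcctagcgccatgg
Cxcl3: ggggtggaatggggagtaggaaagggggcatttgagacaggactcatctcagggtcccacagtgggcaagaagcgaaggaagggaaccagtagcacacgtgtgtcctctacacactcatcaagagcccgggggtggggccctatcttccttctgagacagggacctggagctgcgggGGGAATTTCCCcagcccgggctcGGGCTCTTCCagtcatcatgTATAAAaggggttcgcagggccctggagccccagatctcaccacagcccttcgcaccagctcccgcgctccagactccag
All 3 hold GGGAATTTCC, whose first base is at -71 from the start in Cxcl1, at -97 in Cxcl2 and at -73 in Cxcl3, and each holds 3 matches when overlapping ones on both strands are counted. Among all 32544 start regions of this length, 5.56% hold the NF-kappaB type letters and 13.6% the TATA box.

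The CXC chemokines were called in different comparisons, and the differences between the genes were not tested. Cxcl1 and Cxcl2 were higher in carcinomas than in adenomas, Cxcl2 was higher again in both lung groups than in carcinomas, and Cxcl5 was higher in metastases than in adenomas and disseminated cells. Of these differences, only that of Cxcl2 in metastases against carcinomas lay between groups that shared slides. The others cannot be told apart from slide and scan day. Cxcl1 stood at log2 ratios of 2.12, 2.30, 0.68, 0.74 and 1.78 in the 5 adenomas, and between 2.87 and 6.40 in carcinomas (median 4.79). Disseminated cells ranged from 2.78 to 5.86 (median 3.34), and the 5 metastases were at 4.79, 5.96, 5.05, 8.52 and 4.35. Every carcinoma, disseminated sample and metastasis lay above every adenoma. The log2 change from adenomas was 3.12 ± 0.78 (SE) in carcinomas (8.71-fold, adjusted p = 0.0146), 2.43 ± 0.78 in disseminated cells (5.39-fold, adjusted p = 0.0328) and 4.21 ± 0.82 in metastases (18.5-fold, adjusted p = 0.000827). The rise in disseminated cells lost its call when any 1 of 4 arrays was left out (adenoma 3 or 4, or disseminated 1 or 5, adjusted p 0.0743 to 0.0861), while its within-slide differences were 3.16, 2.40 and 2.15. Metastases exceeded disseminated cells by 1.78 (adjusted p = 0.144) and carcinomas by 1.09 (adjusted p = 0.360), and neither difference passed the test.

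Cxcl2, which encodes a close relative with the same receptor, showed levels of 1.64, 1.96, 0.11, 0.40 and 1.23 in adenomas, where its probe was well above background on 3 of 5 arrays. Carcinomas ranged from 1.54 to 6.62 (median 2.99), disseminated cells from 4.51 to 7.21 (median 5.60), and metastases were at 5.79, 5.47, 6.08, 6.49 and 4.23. Both lung groups lay entirely above the adenomas and above carcinomas 1 to 5, while carcinoma 6 was within the range of disseminated cells and above every metastasis. The log2 change from adenomas was 4.57 ± 0.70 in disseminated cells (23.8-fold, adjusted p = 0.000468) and 4.55 ± 0.73 in metastases (23.4-fold, adjusted p = 0.000182). Against carcinomas it was 2.36 ± 0.67 (5.12-fold, adjusted p = 0.0135) and 2.33 ± 0.70 (5.03-fold, adjusted p = 0.0221). The change of 2.22 ± 0.70 between carcinomas and adenomas (adjusted p = 0.0451) lay close to the threshold. The call was lost when any 1 of 14 arrays was left out, some of them of other groups (adjusted p 0.0518 to 0.118), at log2 changes of 1.55 (without carcinoma 6) to 2.44. The call against carcinomas in metastases was lost without carcinoma 4 or 5 or metastasis 3 or 4 (adjusted p 0.0535 to 0.0572). The array probes of the chemokines lie in 1 cluster on chromosome 5 (build mm7, + strand), at chr5:90882059-90882118 for Cxcl1, chr5:90894748-90894807 for Cxcl2 and chr5:90732453-90732512 for Cxcl5.

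Cxcl5, an epithelial chemokine of the same group, was near or below the reference RNA in adenomas, carcinomas and disseminated cells. Its levels were -0.88, -1.80, -1.63, -1.81 and -1.53 in adenomas, -3.26 to 0.51 in carcinomas (median -0.37) and -2.97 to 0.01 in disseminated cells (median -1.58). The metastases were at -0.78, 2.98, 0.70, 1.43 and -0.51, and thus above all adenomas but overlapping the other 2 groups. The log2 change was 2.29 ± 0.72 over adenomas (4.90-fold, adjusted p = 0.0222) and 2.16 ± 0.69 over disseminated cells (4.46-fold, adjusted p = 0.0442). Metastases shared no slide with adenomas or disseminated cells. Over carcinomas, with which they shared slides, the log2 change was 1.65 ± 0.69 and was not called (adjusted p = 0.0945). With slide as a fixed block in limma, its adjusted p was 0.162. The change over adenomas lost its call without metastasis 2 (1.74, adjusted p = 0.0687) or metastasis 4 (2.13, adjusted p = 0.0537), and that over disseminated cells when any 1 of 13 arrays was left out, some of them of other groups, at log2 changes of 1.60 (without metastasis 2, adjusted p = 0.143) to 2.17.

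**Figure D1:**
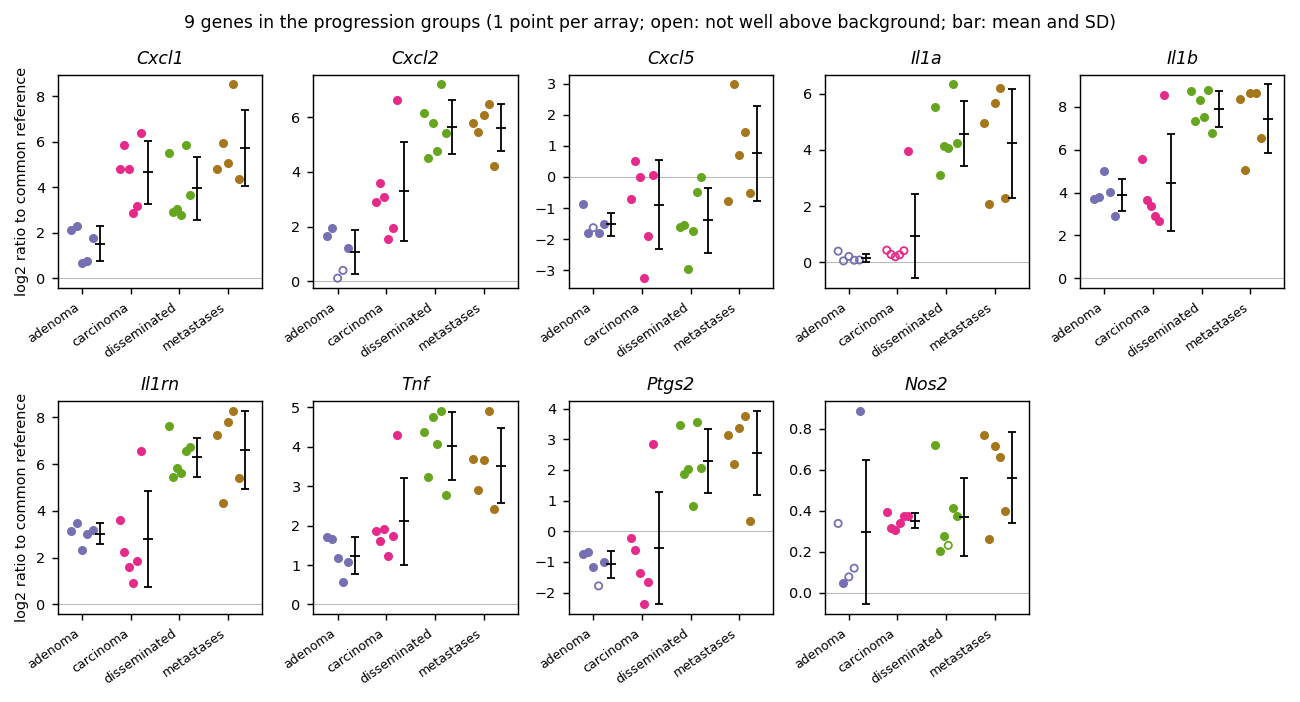
Log2 ratio of sample to reference for each of the 9 genes in the 4 progression groups; points are arrays and bars give the mean and SD. Cxcl2, Il1a, Il1b, Il1rn, Tnf and Ptgs2 sit high in disseminated cells and metastases, carcinoma 6 lies among them, and Cxcl1 is already above all adenomas in carcinomas.

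Both interleukin-1 ligands rose in the 2 lung groups, and their antagonist rose there at the brighter of its probes. The start regions of the ligands are shown to set them beside the chemokines. Il1a (chr2:129309923-129310222, - strand) and Il1b (chr2:129371090-129371389, - strand) both have a TATA box, whose first base is at -32 and -31 from the start, and neither has an NF-kappaB type match in this window. Il1a also holds TGACTCA, a match to TGANTCA (AP-1 type, present in 7.79% of all start regions), with its first base at -12. The antagonist gene Il1rn has 3 start regions, not printed, each of which holds an NF-kappaB type match and 1 of which also holds an AP-1 type match.
Il1a: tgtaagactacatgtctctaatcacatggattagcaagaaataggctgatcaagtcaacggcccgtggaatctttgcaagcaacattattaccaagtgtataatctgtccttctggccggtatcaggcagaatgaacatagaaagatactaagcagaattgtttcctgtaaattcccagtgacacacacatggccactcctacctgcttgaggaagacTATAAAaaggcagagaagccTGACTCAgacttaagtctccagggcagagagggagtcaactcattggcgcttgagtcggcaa
Il1b: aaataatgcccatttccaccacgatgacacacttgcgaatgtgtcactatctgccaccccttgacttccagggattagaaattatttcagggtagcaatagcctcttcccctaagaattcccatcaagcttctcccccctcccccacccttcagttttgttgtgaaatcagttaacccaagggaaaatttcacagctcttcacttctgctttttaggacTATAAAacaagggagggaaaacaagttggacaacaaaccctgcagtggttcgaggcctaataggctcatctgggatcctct
Il1a, an alarm cytokine that is already active in its precursor form, was read by a pair of probes. Its brighter probe was not well above background in any of the 5 adenomas and only in carcinoma 6 among carcinomas, whereas the other one was well above background in 3 of 5 adenomas and 6 of 6 carcinomas. At the brighter probe, carcinomas 1 to 5 stood at 0.43, 0.28, 0.19, 0.26 and 0.41 and carcinoma 6 at 3.97. Disseminated cells ranged from 3.11 to 6.35 (median 4.18) and metastases were at 4.97, 2.06, 5.69, 6.20 and 2.28. Both lung groups were above all adenomas and carcinomas 1 to 5. The log2 change over adenomas was 4.42 ± 0.78 in disseminated cells (adjusted p = 0.00125) and 4.09 ± 0.82 in metastases (adjusted p = 0.00108). Over carcinomas the log2 change was 3.65 ± 0.75 in disseminated cells (adjusted p = 0.00165) and 3.32 ± 0.78 in metastases (adjusted p = 0.00552). The sizes of these 4 changes are uncertain, since 0 of 5 adenomas and 1 of 6 carcinomas were well above background at this probe. Over adenomas they ran from 4.06 to 7.71 in disseminated cells and from 3.60 to 7.14 in metastases under the alternatives described below. Without carcinoma 6 the changes over carcinomas were 4.26 and 3.93. The second Il1a probe was called in the same 4 comparisons with smaller log2 changes, 2.85 and 3.13 over adenomas and 2.24 and 2.52 over carcinomas.

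Il1b, the secreted form that the inflammasome activates, was well above the reference in every group. Adenomas stood at 3.71, 3.81, 4.99, 4.01 and 2.91, carcinomas between 2.66 and 8.56 (median 3.51), disseminated cells between 6.76 and 8.80 (median 7.91), and metastases at 8.38, 5.07, 8.66, 8.63 and 6.52. Disseminated cells and metastases lay above all adenomas, but carcinomas 1 (5.57) and 6 (8.56) overlapped with the metastases. The log2 change from adenomas was 4.02 ± 0.88 in disseminated cells (16.2-fold, adjusted p = 0.00427) and 3.57 ± 0.92 in metastases (11.9-fold, adjusted p = 0.00657). From carcinomas it was 3.46 ± 0.84 (11.0-fold, adjusted p = 0.00507) and, in metastases, 8.01-fold (SE 0.88 on the log2 scale, adjusted p = 0.0189), which was lost without metastasis 1, 3 or 4 (adjusted p 0.0508 to 0.0566).

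Il1rn encodes the receptor antagonist that blocks both ligands. At its brighter probe, adenomas stood at 3.14, 3.50, 2.32, 3.02 and 3.17, carcinomas between 0.93 and 6.54 (median 2.04), disseminated cells between 5.45 and 7.61 (median 6.18) and metastases at 7.22, 4.34, 7.79, 8.29 and 5.39. Adenomas lay entirely below both lung groups, and so did carcinomas 1 to 5. The log2 change over adenomas was 3.27 ± 0.82 in disseminated cells (adjusted p = 0.00894) and 3.58 ± 0.85 in metastases (adjusted p = 0.00404). Over carcinomas it was 3.50 ± 0.78 (adjusted p = 0.00296) and 3.81 ± 0.82 (adjusted p = 0.00305). Without carcinoma 6 the changes over carcinomas were 4.25 and 4.56. A second Il1rn probe gave a different picture. It was well above background in 0 of 5 adenomas, 1 of 6 carcinomas, 5 of 6 disseminated samples and 3 of 5 metastases. Its log2 change over carcinomas was 2.05 in disseminated cells (adjusted p = 0.00207) but 0.66 in metastases (adjusted p = 0.335), and metastases were 1.38 lower than disseminated cells (log2 change -1.38, adjusted p = 0.0465). The antagonist's rise in disseminated cells was thus read by both probes and that in metastases by the brighter one only.

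Tnf, the gene of tumor necrosis factor, followed the interleukin genes at smaller size. Its levels were 1.72, 1.66, 1.17, 0.57 and 1.09 in adenomas, 1.22 to 1.92 in carcinomas 1 to 5 and 4.30 in carcinoma 6. Disseminated cells ranged from 2.78 to 4.91 (median 4.23), and metastases were at 3.70, 2.90, 3.67, 4.92 and 2.41. Both lung groups exceeded every adenoma and carcinomas 1 to 5. The log2 change over adenomas was 2.78 ± 0.51 in disseminated cells (6.88-fold, adjusted p = 0.00167) and 2.28 ± 0.54 in metastases (4.85-fold, adjusted p = 0.00372). Over carcinomas it was 1.91 ± 0.49 in disseminated cells (3.77-fold, adjusted p = 0.00727), and 1.41 ± 0.51 in metastases did not pass (adjusted p = 0.0552). That last difference was called without carcinoma 6 (1.85, adjusted p = 0.00348), disseminated 6 (1.41, adjusted p = 0.0433) or metastasis 5 (1.69, adjusted p = 0.0271).

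Among the enzymes, Ptgs2, the inducible cyclooxygenase that makes prostaglandin precursors, rose in both lung groups. It stood at -0.75, -0.67, -1.17, -1.78 and -1.01 in adenomas, at -2.37 to -0.21 in carcinomas 1 to 5 and at 2.84 in carcinoma 6. Disseminated cells ranged from 0.82 to 3.55 (median 2.05), and metastases were at 3.15, 2.21, 3.38, 3.75 and 0.33. Again both lung groups lay above all adenomas and carcinomas 1 to 5. The log2 change over adenomas was 3.37 ± 0.75 in disseminated cells (10.4-fold, adjusted p = 0.00479) and 3.64 ± 0.79 in metastases (12.5-fold, adjusted p = 0.00193). Over carcinomas it was 2.85 ± 0.72 (7.23-fold, adjusted p = 0.00643) and 3.12 ± 0.75 (8.70-fold, adjusted p = 0.00629). Without carcinoma 6 the changes over carcinomas were 3.53 and 3.80. A second Ptgs2 probe was called in the same 4 comparisons, at log2 changes of 2.65 to 3.76.

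Nos2, the inducible nitric oxide synthase, stayed close to the reference, with means of 0.29 ± 0.35 (SD, n = 5) in adenomas, 0.35 ± 0.04 (n = 6) in carcinomas, 0.37 ± 0.19 (n = 6) in disseminated cells and 0.56 ± 0.22 (n = 5) in metastases. Metastases exceeded adenomas in Nos2 by 0.27 (adjusted p = 0.162).

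Counted together, 2 of the 9 genes were called higher in carcinomas than in adenomas, where 1.16% of all genes were. For disseminated cells the count was 7 of 9 over adenomas (4.64% of all genes) and 6 of 9 over carcinomas (5.47%), and for metastases 8 of 9 over adenomas (6.07%) and 5 of 9 over carcinomas (4.73%). Cxcl5 alone was called between metastases and disseminated cells, where 3.44% of all genes were called higher in metastases. By limma, 0 of the 9 were called lower in any progression comparison at the brightest probe of each gene. The second Il1rn probe was called lower in metastases than in disseminated cells. Of all genes, 2.14% (carcinomas), 5.84% (disseminated cells) and 8.51% (metastases) were lower than in adenomas. Against carcinomas, 6.12% were lower in disseminated cells and 5.34% in metastases, and 3.67% were lower in metastases than in disseminated cells. Without carcinoma 6 the counts were 1 for carcinomas over adenomas, 6 for disseminated cells over carcinomas and 6 for metastases over carcinomas. The median log2 change of the 9 genes was 3.27 in disseminated cells and 3.58 in metastases over adenomas, beside -0.01 and 0.02 over all genes. The groups did not overlap for 1, 7 and 8 of the 9 genes in carcinomas, disseminated cells and metastases against adenomas, and for 10.5%, 9.37% and 21.5% of all genes. In the other 3 comparisons the groups overlapped for all 9 genes, and did not for 7.17% (disseminated cells against carcinomas), 13.5% (metastases against carcinomas) and 4.19% (metastases against disseminated cells) of all genes. These 6 contrasts share groups and are not independent of each other.

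**Figure D2:**
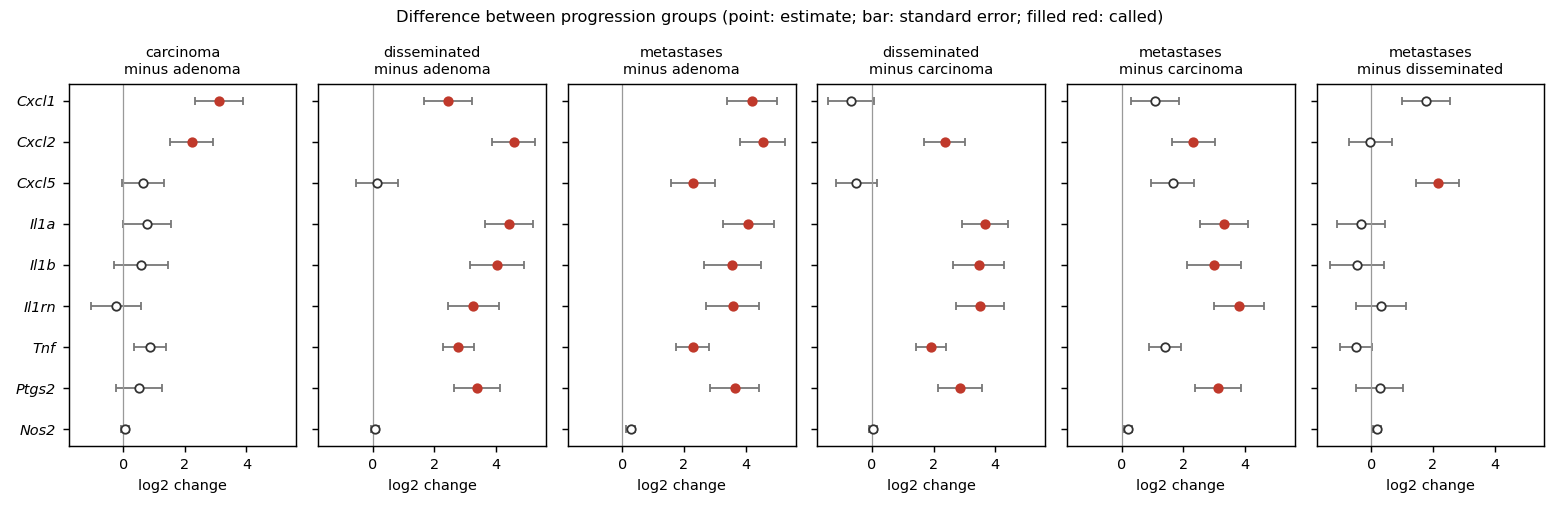
Log2 change of each of the 9 genes between progression groups, with the SE from limma; filled points were called. The lung groups lie to the right of 0 for Il1a, Il1b, Il1rn, Tnf and Ptgs2 against both primary stages, whereas Cxcl1 is called against adenomas only.

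Within slides, all 7 genes called in disseminated cells over adenomas were higher on each of slides 4, 5 and 6. The smallest within-slide log2 difference was 2.15 (Cxcl1, slide 6) and the largest 5.20 (Il1b, slide 5). Against carcinomas, metastases were higher in all 9 genes on slides 1 and 2. On slide 3, which held carcinomas 5 and 6 and metastasis 2, they were higher in 5 genes and lower in 4. The differences on slides 1, 2 and 3 kept 1 direction for Ptgs2 (3.33, 4.24 and 1.61), Cxcl2 (2.58, 3.15 and 1.18), Cxcl1 (0.35, 1.87 and 1.17), Il1rn (5.01, 5.15 and 0.15) and Cxcl5, whose smallest difference was 0.70 on slide 2. They turned on slide 3 for Il1a (3.72, 5.28 and -0.12), Il1b (4.31, 4.04 and -0.54), Tnf (1.62, 2.42 and -0.12) and Nos2 (0.23, 0.37 and -0.11). With slide as a fixed block, 3 of the 9 genes were called in metastases over carcinomas (Il1a, Il1rn and Ptgs2), and Il1b (adjusted p = 0.103) and Cxcl2 (adjusted p = 0.0643) were not.

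Macrophage markers moved with Il1a, Il1b, Il1rn, Ptgs2, Tnf and Cxcl2, and less with Cxcl1, Nos2 and Cxcl5. Alveolar macrophage genes and general leukocyte genes moved with the first 6 of these to a similar extent. The mean log2 ratio of 15 macrophage genes was 0.51 ± 0.27 (SD, n = 5) in adenomas, 1.16 ± 1.98 (n = 6) in carcinomas, 4.24 ± 0.58 (n = 6) in disseminated cells and 3.18 ± 1.95 (n = 5) in metastases. Of its 15 genes, 13 were called higher in disseminated cells and 9 in metastases over adenomas, and 10 and 3 over carcinomas. Its brightest gene was Cd14, the lipopolysaccharide co-receptor, at 3.51, 4.74, 6.37 and 6.64 in the 4 groups, and Csf1r, the receptor for the macrophage growth factor, was at -0.57, 0.00, 4.21 and 2.17. The mean of 5 general leukocyte genes was -0.87, -1.19, 2.78 and 0.89, with 5 of 5 called higher over adenomas in disseminated cells and 2 of 5 in metastases, and its member Ptprc was at -2.74, -3.45, 2.30 and 0.17. Of 10 T and NK cell genes, 1 was higher and 1 lower in disseminated cells, 0 were higher and 2 lower in metastases, and 0 were higher and 3 lower in carcinomas, all over adenomas. These levels are of GFP-sorted cells. Their part in the changes of the 9 genes was not tested.

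Neutrophils are the cells these chemokines attract. Of 16 neutrophil markers measured (Ly6g was not among the probes), the mean in every carcinoma, disseminated sample and metastasis lay above that of every adenoma. For carcinomas the margin was narrow (lowest carcinoma 1.48, highest adenoma 1.46), and these groups shared no slide. Cxcr2, Mmp8, Ngp, Retnlg, Itgam and Elane were not well above background in any adenoma, so the adenoma mean is partly background signal. The marker mean was 1.34 ± 0.08 (SD, n = 5) in adenomas, 2.02 ± 0.78 (n = 6) in carcinomas, 4.47 ± 0.74 (n = 6) in disseminated cells and 2.78 ± 0.73 (n = 5) in metastases. Over adenomas, 11 were called higher in disseminated cells, while in metastases 7 were higher and 1 was lower. Compared directly with disseminated cells, metastases had 9 of the markers lower. The granulocyte growth factor receptor Csf3r was at 0.40, 1.06, 4.67 and 2.01, and the brightest marker, Lcn2, which epithelium also makes, at 5.50, 6.88, 5.51 and 6.28. The precursor marker Elane was well above background on 3 of 22 arrays. Cxcl1 and Cxcl5 were higher in metastases than in disseminated cells (by 1.78 and 2.16) where these neutrophil markers were lower, and only the Cxcl5 change was called.

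Mammary epithelial genes were measured at uneven levels across the groups. The mean of 10 mammary epithelial genes was 3.09 ± 0.26 (n = 5) in adenomas, 3.25 ± 0.62 (n = 6) in carcinomas, 1.66 ± 1.16 (n = 6) in disseminated cells and 2.99 ± 1.52 (n = 5) in metastases, with 2.09 in carcinoma 6 and 0.39 in metastasis 4. Epcam, an epithelial surface protein, was at 2.43, 3.45, 1.46 and 3.85, and Krt18, the brightest marker, at 2.02, 2.57, -0.62 and 0.82. Lung epithelium also expresses Epcam and Krt18, so these values do not identify the tumor cells. Metastasis 4 was the sample with the highest Cxcl1 (8.52), Cxcl2 (6.49), Il1a (6.20), Il1rn (8.29), Tnf (4.92) and Ptgs2 (3.75) among metastases. Il1b and Cxcl5 were highest in other metastases (8.66 and 2.98).

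**Figure D3:**
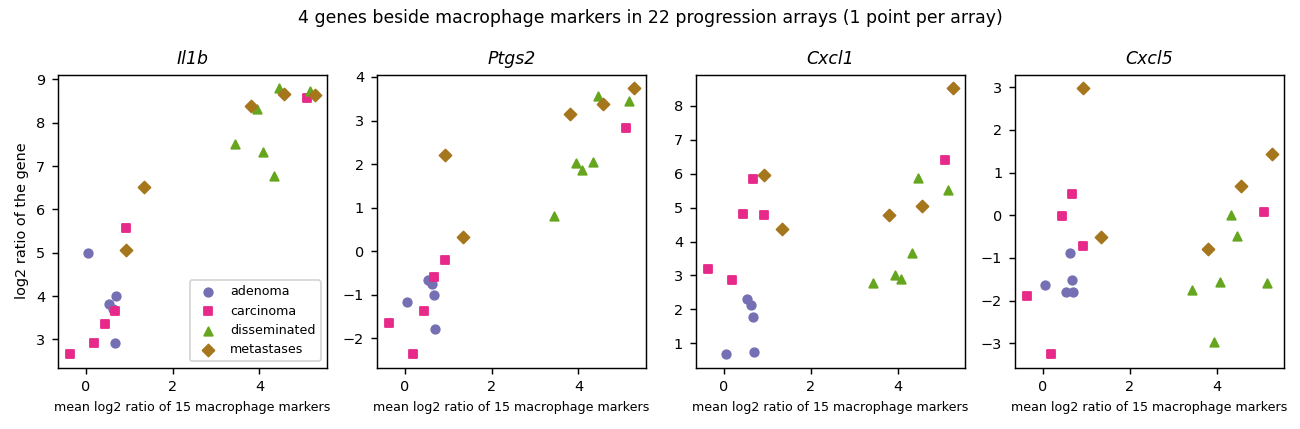
Log2 ratios of 4 of the genes against the mean log2 ratio of the 15 macrophage markers on the 22 progression arrays, colored by group. Il1b and Ptgs2 climb with the marker mean across arrays, carcinoma 6 lies with the disseminated cells, and Cxcl1 and Cxcl5 are spread at each marker level.

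Across the 22 arrays, which share the group differences, the marker mean and the genes were correlated at r = 0.94 for Il1a and Il1b, 0.93 for Il1rn, 0.91 for Ptgs2, 0.90 for Tnf and 0.87 for Cxcl2, but at 0.54 for Cxcl1, 0.41 for Nos2 and 0.20 for Cxcl5. The first 6 genes were also correlated with each other at r of 0.853 or above, whereas the 36 pairs of the 9 genes ranged from 0.201 to 0.946 (median 0.654). With the mean of alveolar macrophage genes, the first 6 were correlated at r = 0.85 (Il1rn) to 0.92 (Il1a). With the mean of general leukocyte genes, r was 0.77 (Cxcl2) to 0.93 (Il1b). The correlation was thus not particular to the macrophage list. Cxcl1 was closest to Cxcl2 (0.776) and Cxcl5 (0.693) among the 9. By the same measure, the genes most like Il1a were Cxcl3 (0.977), Plek (0.973) and Clec4e (0.972), those most like Il1b were Arl5c (0.979), Clec4e (0.967) and Bcl2a1b (0.966), and those most like Il1rn were Vcam1 (0.963), Mpeg1 (0.962) and Clec5a (0.960). Stx11 was the most like both Cxcl2 (0.963) and Ptgs2 (0.956), and Synj1 the most like Tnf (0.964). Cxcl1 was most like Ms4a19 (0.926) and Rasal2 (0.905) among genes with a symbol.

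Most chemokine relatives were higher in disseminated cells. The counts of this and the next lists stand beside 4.64% of all genes higher and 5.84% lower in disseminated cells over adenomas, 6.07% and 8.51% in metastases over adenomas, 5.47% and 6.12% in disseminated cells over carcinomas, and 4.73% and 5.34% in metastases over carcinomas. Of 9 chemokine relatives and receptors, 8 were called higher in disseminated cells than in adenomas and 7 than in carcinomas, and 2 and 1 in metastases. Cxcl3, the neighbor of Cxcl2, was the strongest, at mean log2 ratios of 0.27 in adenomas, 1.69 in carcinomas, 6.20 in disseminated cells and 5.43 in metastases. Its log2 change over adenomas was 5.93 (adjusted p = 0.000451) and 5.15 (adjusted p = 0.000535), and over carcinomas 4.51 (adjusted p = 0.00103) and 3.74 (adjusted p = 0.00644). Pf4, a platelet chemokine, changed by 5.31 in disseminated cells and 4.02 in metastases over adenomas. Cxcr2, the receptor of Cxcl1, Cxcl2 and Cxcl5, was not well above background in any adenoma at its brighter probe, and there it was at least 8.78-fold higher in disseminated cells (adjusted p = 0.000744), measured against the detection limit on the sample channel, which is open to dye bias. It was lower in metastases than in disseminated cells (log2 change -2.49, adjusted p = 0.00279), as was the platelet chemokine Ppbp (-2.44, adjusted p = 0.000931).

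In the interleukin-1 family, 6 of 18 measured genes were called higher and 1 lower in disseminated cells over adenomas, and 5 higher and 2 lower in metastases. The decoy receptor Il1r2 changed by 4.02 (adjusted p = 0.00227) and 2.47 (adjusted p = 0.0295), and the related cytokine Il18 by 2.85 in disseminated cells (adjusted p = 0.000684). Il33, an alarm cytokine of the same family, changed by 2.24 in metastases (adjusted p = 0.0108). The inflammasome adaptor Pycard was lower in both, by log2 changes of -1.01 (adjusted p = 0.0323) and -1.85 (adjusted p = 0.000539). Over carcinomas the counts were 7 higher and 0 lower in disseminated cells, and 3 higher and 1 lower in metastases.

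Of 13 genes of TNF signaling, 6 were called higher in disseminated cells and 2 in metastases over adenomas. The receptor Tnfrsf1b changed by 3.81 in disseminated cells (adjusted p = 0.00504), and the adaptor Traf1 by 3.26 in disseminated cells and 2.35 in metastases. Adam17, the protease that sheds TNF, was lower in metastases than in carcinomas (-1.14, adjusted p = 0.0209) and disseminated cells (-2.02, adjusted p = 0.000871). Of 22 genes of NF-kappaB subunits, inhibitors and targets, 6 were called higher and 1 lower in each lung group over adenomas. The adhesion molecule Vcam1 changed by 2.96 and 3.06, the inhibitor gene Nfkbia by 2.54 in disseminated cells (adjusted p = 0.0101), and the inhibitor gene Tnfaip3 by 3.35 in metastases (adjusted p = 0.00112). Bcl3 was lower in metastases (-2.10, adjusted p = 0.000119), and Csf3, the granulocyte growth factor, was lower in disseminated cells (-1.47, adjusted p = 0.0413). Between carcinomas and adenomas, 2 genes of these lists changed, with Lcn2 higher (1.38, adjusted p = 0.0426) and Bcl3 lower (-1.12, adjusted p = 0.0243).

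Around Ptgs2, 5 of 16 prostaglandin genes were called higher and 1 lower in disseminated cells over adenomas, and 4 higher and 0 lower in metastases. Tbxas1, thromboxane synthase, changed by 3.33 and 2.74, and the prostaglandin E2 receptor Ptger2 by 2.00 in disseminated cells. The inducible prostaglandin E synthase Ptges was lower in disseminated cells than in carcinomas (-1.54, adjusted p = 0.00501) and higher in metastases than in disseminated cells (2.08, adjusted p = 0.00188). Of 15 genes of arginine, nitric oxide and polyamine metabolism, 3 were called higher and 3 lower in disseminated cells over adenomas, and 5 higher and 1 lower in metastases. The arginine transporter Slc7a2 was not well above background in any adenoma, and was by the same measure at least 6.68-fold higher in disseminated cells (adjusted p = 0.0127) and at least 9.68-fold higher in metastases (adjusted p = 0.00531). Odc1, the first enzyme of polyamine synthesis, changed by 2.77 in metastases (adjusted p = 0.000987). Ddah1 and Ddah2, which degrade inhibitors of nitric oxide synthase, were lower in disseminated cells (-1.63 and -1.52).

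After chemotherapy few genes of the whole array were called, so a count of 0 among the 9 does not set them apart. By limma, 0 of the 9 were called in residual tumors against untreated ones, in relapsed against untreated or in relapsed against residual tumors, where 0.101%, 0.00347% and 0.205% of all genes were called. At an unadjusted p below 0.05 there were 0 genes in the first comparison, 1 in relapsed against untreated tumors (Cxcl5) and 1 in relapsed against residual tumors (Tnf), beside 9.08%, 7.65% and 7.76% of all genes, and an unmoderated test, with adjustment, also called 0. The groups overlapped for all 9 genes in each comparison, against 0.792%, 1.66% and 1.69% of all genes whose groups did not overlap. The groups were unevenly spread over 5 slides, of which slide 1 held 4 untreated tumors only and slide 3 held 3 residual tumors only. The median log2 change of the 9 was -0.23, -0.67 and -0.25, beside 0.00, 0.01 and 0.02 over all genes.

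Spread within the groups was wide. Cxcl1 ranged from 1.99 to 4.31 in untreated tumors (median 3.95) and from 1.23 to 4.73 in residual tumors (median 3.70), and relapsed tumors were at 2.04, 3.43, 3.81 and 3.69. Cxcl2 ranged from 4.10 to 6.46 (median 5.97) and from 3.26 to 6.66 (median 5.97), with relapsed tumors at 3.26, 5.60, 5.69 and 5.18. The same samples, untreated tumor 5, residual tumor 3 and relapsed tumor 1, were the lowest of their groups for both genes, which were correlated at r = 0.903 over the 16 arrays. Il1b ranged from 2.56 to 6.75 in untreated tumors, where tumors 1, 2 and 3 stood at 6.75, 6.72 and 5.85 and tumors 4, 5 and 6 at 3.23, 2.56 and 3.16. Il1a followed the same split, at 2.40, 2.68 and 2.57 against 0.50, 0.55 and 0.54, and the macrophage marker mean was 2.06, 2.37 and 1.75 in the first 3 tumors and -0.36, -0.33 and -0.10 in the other 3. The part of these markers in the spread was not tested.

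Tnf had the highest group mean in residual tumors, 3.46 ± 0.98 (SD, n = 6), against 2.59 ± 0.80 (n = 6) in untreated and 2.32 ± 0.45 (n = 4) in relapsed tumors. Residual tumors stood at 3.82, 4.62, 1.78, 3.98, 2.99 and 3.55. The log2 difference was 0.87 ± 0.43 (SE) over untreated tumors (adjusted p = 0.575), and relapsed tumors differed from residual ones by -1.13 ± 0.48 (adjusted p = 0.580). Cxcl5 differed by -1.03 in residual (adjusted p = 0.579) and -1.25 in relapsed tumors (adjusted p = 0.635) from the untreated mean of 1.64 ± 1.32 (n = 6). Il1rn and Ptgs2 group means lay within 1 SD of the untreated mean, and Nos2 was not well above background on any of the 16 arrays.

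**Figure D4:**
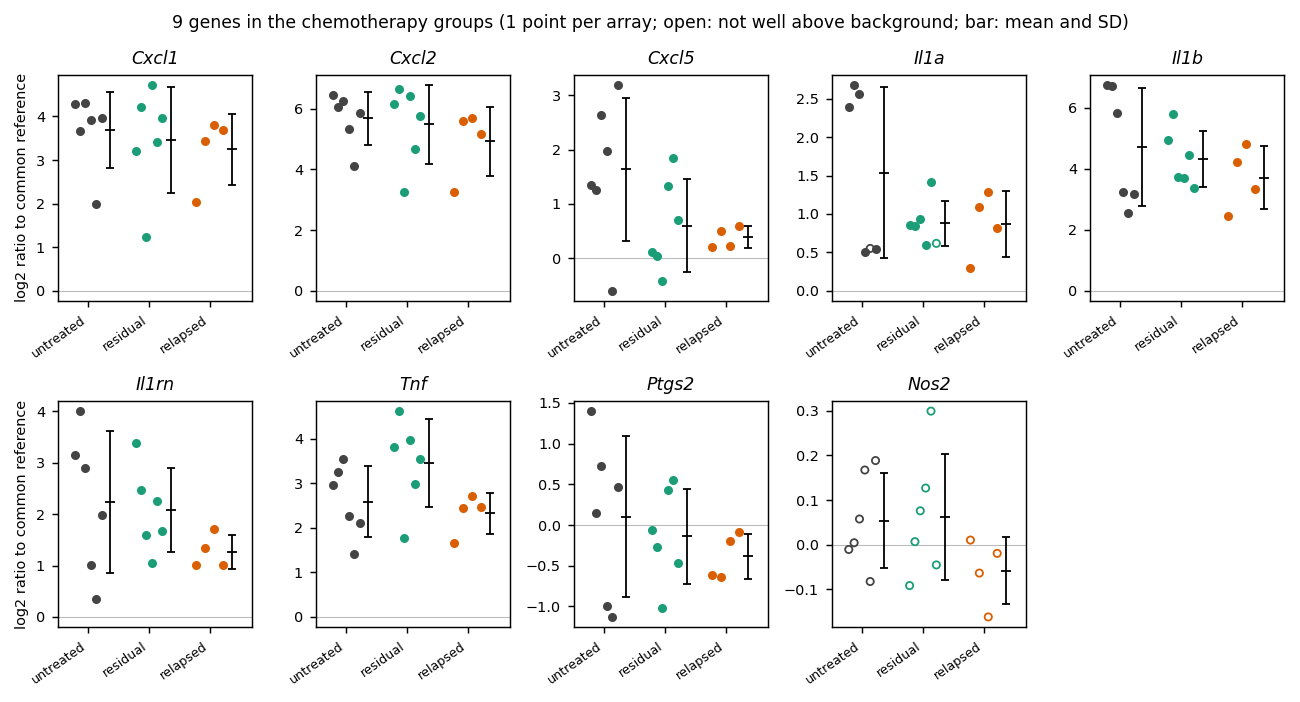
Log2 ratio of sample to reference for each of the 9 genes in untreated, residual and relapsed tumors; points are arrays and bars give the mean and SD. The 3 groups overlap for every gene, and untreated tumors fall into a higher and a lower set of 3 for Il1a and Il1b.

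Over these 16 arrays, the macrophage marker mean was correlated with Il1b at r = 0.91, Il1rn at 0.86 and Il1a at 0.79, but with Cxcl1 at 0.38 and Cxcl5 at 0.15. For the mean of general leukocyte genes, r was 0.95 with Il1b, 0.88 with Il1rn and 0.81 with Il1a, and 0.40 with Cxcl1 and 0.19 with Cxcl5. The genes most like Il1b were Ccl3 (0.976), Cd300lf (0.972) and Plek (0.966), and Cxcl1 was most like Tm4sf1 (0.928) and Cxcl2. Pairs of the 9 genes ranged from -0.14 (Il1b and Nos2) to 0.903 (Cxcl1 and Cxcl2), with a median of 0.501. Nos2 was not well above background on any of these arrays, so its pairs describe background signal. Among pairs without Nos2, Cxcl5 and Tnf had the lowest correlation (0.137). The macrophage marker mean was 0.90 ± 1.29 (SD, n = 6) in untreated, 0.26 ± 0.86 (n = 6) in residual and -0.05 ± 0.73 (n = 4) in relapsed tumors, and the leukocyte mean was -1.59, -1.88 and -2.40. Neutrophil markers were at 1.43, 1.5 and 1.55, and T and NK cell markers at -0.10, 0.07 and -0.20. Their part in the medians of the 9 genes was not tested. Mammary epithelial markers were at 4.12 ± 0.16 (n = 6), 4.25 ± 0.21 (n = 6) and 4.32 ± 0.21 (n = 4) in the same order. Of the 93 genes of the chemokine, interleukin-1, TNF, NF-kappaB, prostaglandin and arginine lists, 0 were called by limma in any of the 3 comparisons, and 12, 9 and 21 were below an unadjusted p of 0.05, where 9.08%, 7.65% and 7.76% of all genes were.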

How the data were processed

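Of 38 Agilent 2-color arrays, 22 (progression) and 16 (chemotherapy) were analyzed, fitted apart because the progression RNA had a second round of amplification. The authors deposited spot intensities (mean signal and median local background of both channels) from Feature Extraction 10.7, not normalized, plus their own background-corrected and normalized log2 ratios as a matrix. The matrix was used as an alternative only, and its columns correlated at r = 0.969 to 0.999 with the values used here (slopes 0.944 to 1.09, medians 0.005 to 0.053). The authors hybridized 750 ng of labeled cRNA, without dye swaps.

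Calculations used limma 3.58.1 in R 4.3.3, with statmod 1.5.0 and the data.table package, version 1.17.8. Intensities were corrected with normexp at an offset of 50 (the offset is not given in the sources used here), normalized with loess within arrays and by quantiles between all arrays of 1 experiment. Outlier spots were left out and the other spots of each probe averaged. The probe with the highest mean signal stood for its gene. Of 41174 probes, 23082 were named through the RefSeq gene table given, and the other 18092 by the array file. All groups of an experiment entered 1 limma fit without covariates, with Benjamini-Hochberg adjustment over 28781 genes. Replicates are samples the labels list separately, and p-values measure the spread between them. The number of arrays limits the precision. The sample channel was well above background at 48.4 to 75.5% of the spots in adenomas.

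The 9 genes, the marker lists and the pathway lists were chosen with earlier results of these data known. Other genes are named by 2 rules: the called genes of each pathway list with the 2 largest rises and falls, and the 3 genes with the highest Pearson correlation to each of the 9. Not all of these are printed. From the marker lists, the most abundant gene is named, with some defining genes chosen after their values were seen. 1 further gene of the set is not reported here. Alternatives were a normexp offset of 0, processed signals, no or Aquantile normalization between arrays, the deposited ratios, dim probes left out, every probe tested (a gene being called where any of its probes was), blocks for slide or for replicate number, fits of only the groups compared, an unmoderated t-test (named in the study's legends for progression groups only), and each array left out in turn. On simulated data with 200 genes changed by 1.5 on the log2 scale, 95.5 to 96% were recovered in the chemotherapy comparisons and 77 to 83.5% in the progression comparisons. At a change of 2 it was 97.5 to 99% and 89.5 to 91.5%, with at most 8 false calls, and smaller changes were not simulated. These rates are over the changed genes and were not worked out for the 9 genes. Between residual and untreated tumors, the SE of the 9 genes ran from 0.07 (Nos2) to 0.74 (Il1b) on the log2 scale.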

Additional observations from a re-analysis of the deposited data

Results flagged for a closer look

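In 3 of the 63 gene and group combinations with 4 to 10 samples, 1 array lay far from the others by Dixon's test, which chance does in about 1 of 20. Il1a in carcinoma 6 was at a log2 ratio of 3.97, where carcinomas 1 to 5 reached at most 0.43. Tnf in the same carcinoma was at 4.30, where the next was at 1.92. This array also had the highest macrophage marker mean among carcinomas, 5.10, and a mammary epithelial mean of 2.09, the lowest among them. Cxcl1 in untreated tumor 5 was at 1.99, below the next value of 3.67, and Cxcl2 was lowest in the same tumor (4.10).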

How the results depend on the processing

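Counts of called genes among the 9 were 6 to 7 (disseminated cells over adenomas), 7 to 8 (metastases over adenomas) and 5 to 6 (disseminated cells over carcinomas) under all alternatives. Carcinomas over adenomas gave 1 in place of 2 with the deposited log2 ratios, slide as a random block, the replicate block, only the groups compared or the unmoderated t-test, and 1 to 2 with 1 array left out. Metastases over disseminated cells gave 0 in place of 1 with processed signals, slide as a random block, only the groups compared or the unmoderated t-test, and 0 to 1 with 1 array left out. With every probe tested in limma, the second Il1rn probe was called lower in metastases than in disseminated cells (adjusted p = 0.0465). Metastases over carcinomas gave 3 in place of 5 with slide as a fixed block, only the groups compared or the unmoderated t-test, and 3 to 6 with 1 array left out (3 without metastasis 3 or 4, 6 without carcinoma 6). It gave 6 with a normexp offset of 0, no or Aquantile normalization between arrays, dim probes left out or slide as a random block, where Tnf was called (adjusted p 0.0329 to 0.0475). The chemotherapy counts stayed at 0 under all alternatives. Slide as a fixed block could not be fitted for the 4 comparisons whose groups share no slide.

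Of 425 values for single genes under settings other than leaving out an array, 399 kept their direction and side of the threshold, and 0 reversed, as did 0 of 790 with 1 array left out. Of 29 called changes, 22 kept their call under all alternatives run. With every probe tested, a gene kept its call through any of its probes. The 22 thus include both Il1rn changes in metastases, which the second probe did not call (adjusted p = 0.348 over adenomas and 0.335 over carcinomas in limma). Besides those named in the report, Cxcl2 in disseminated cells over carcinomas lost its call with processed signals (adjusted p = 0.0579) and the t-test (adjusted p = 0.0705). Cxcl5 in metastases over adenomas lost its call with no or Aquantile normalization between arrays (adjusted p = 0.052). Cxcl1 in disseminated cells over adenomas lost its call with the t-test (adjusted p = 0.0588). Same-numbered samples deviated together at correlations of -0.414 to 0.424 over the pairs, so that the numbers do not pair samples. With the replicate block, the calls of Cxcl1 in disseminated cells over adenomas (adjusted p = 0.0851) and of Cxcl2 in carcinomas over adenomas (adjusted p = 0.0935) were lost, and no other call of the 9 genes changed. Signal near background limits Nos2, Cxcl2 in adenomas, and the brighter Il1a and second Il1rn probes in adenomas and carcinomas.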

Other observations

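Other cell type lists in the progression groups gave these means. Lung epithelial genes were at 1.31 ± 0.26 (SD, n = 5) in adenomas, 1.54 ± 0.23 (n = 6) in carcinomas, 2.92 ± 0.54 (n = 6) in disseminated cells and 2.36 ± 0.50 (n = 5) in metastases. Alveolar macrophage genes were at 0.48 ± 0.15, 1.5 ± 0.56, 4.36 ± 0.59 and 3.43 ± 0.73 in the same order, T and NK cell genes at 1.09 ± 0.30, 0.35 ± 0.16, 1.19 ± 0.58 and 0.54 ± 0.45, endothelial genes at 0.15 ± 0.16, 0.70 ± 0.28, 1.52 ± 0.68 and 0.81 ± 0.17, and fibroblast genes at -2.29 ± 0.70, -3.45 ± 0.60, -2.88 ± 1.15 and -3.96 ± 0.78. Their part in the levels of the 9 genes was not tested.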
